A study of Mus musculus with 8 samples.

Results

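A set of 10 T cell lineage genes was followed in RNA of B cell leukemias from transgenic mice. They are the CD3 chains Cd3d, Cd3e and Cd3g, the coreceptor genes Cd4, Cd8a and Cd8b1, the costimulatory receptors Cd28 and Icos, the transcription factor Foxp3 and the inhibitory receptor Pdcd1. The genes are given by name, with no threshold on their values, and all 10 were found, each on 1 row, among 16419 genes measured. The gene table spells them in capitals (CD3D, CD3E, CD3G, CD4, CD8A, CD8B1, CD28, ICOS, FOXP3 and PDCD1). One group of 4 mice was transgenic for TCL1, an oncogene that in B cells gives rise to a disease like chronic lymphocytic leukemia of humans. The other 4 mice, called ROR1xTCL1, carried TCL1 together with ROR1, a surface receptor found on human leukemia cells of that kind. All 8 mice thus carried TCL1, and none was free of leukemia. In this model, as background, the TCL1 transgene is driven by immunoglobulin gene elements and is active in B cells. Each array held 1 mouse, and the series text states that technical replicates were not made. Age, strain, organ and the purity of the isolated cells are not given in the sources used here.

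The CD3 chains are part of the T cell receptor complex, pass its signal into the cell and are carried by all mature T cells. Cd4 marks helper T cells and, with Foxp3, regulatory T cells, while Cd8a and Cd8b1 pair as the coreceptor of cytotoxic T cells. T cells that remain in a B cell leukemia are known to be able to help or to attack the leukemic cells, and Pdcd1 and its ligands are known to restrain the attack.

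The values are per gene and were taken as log2 from their range, and levels of different genes are not compared because they depend on the probes. The columns of the gene table give the group of an array but not its replicate number, so the arrays are called a to d within each group. The B lineage was present on every array. Cd79a lay between 11.54 and 11.88 and Cd79b between 11.85 and 12.13, both far over the array medians of 5.03 to 5.09. No member value fell under the first quartile of its array (3.52 to 3.71), and 5 members stayed above the median gene on every array. In such bulk samples, fewer cells of a type and less RNA per cell cannot be told apart.

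None of the T lineage genes passed the test of a difference between the genotypes. In the limma fit over all 16419 genes, 0 of the 10 members passed an adjusted p under 0.05, and 0 had an unadjusted p under 0.05. The background was 0% of all genes by the adjusted rule and 1.63% by the unadjusted rule. The groups overlapped for all 10 members, where 1.1% of all genes did not overlap. The difference, ROR1xTCL1 minus TCL1, was above 0 for 8 members and below 0 for 2, with 45.9% of all genes above 0, and its median was 0.12 against -0.01 over all genes. The 95% intervals of the members reached from 0.37 to 1.07 log2 units to either side before any adjustment, and after adjustment over all genes a larger difference was needed for a call.

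The members varied mainly between animals of the same group. Over the 8 arrays the members had standard deviations of 0.23 to 0.75 with a median of 0.62, against 0.21 for the median gene. Group explained a median of 1.79% of a member's variance. TCL1 array a was the highest array for 7 members, TCL1 array d the lowest for 6 and ROR1xTCL1 array a the lowest for 3.

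**Figure D1:**
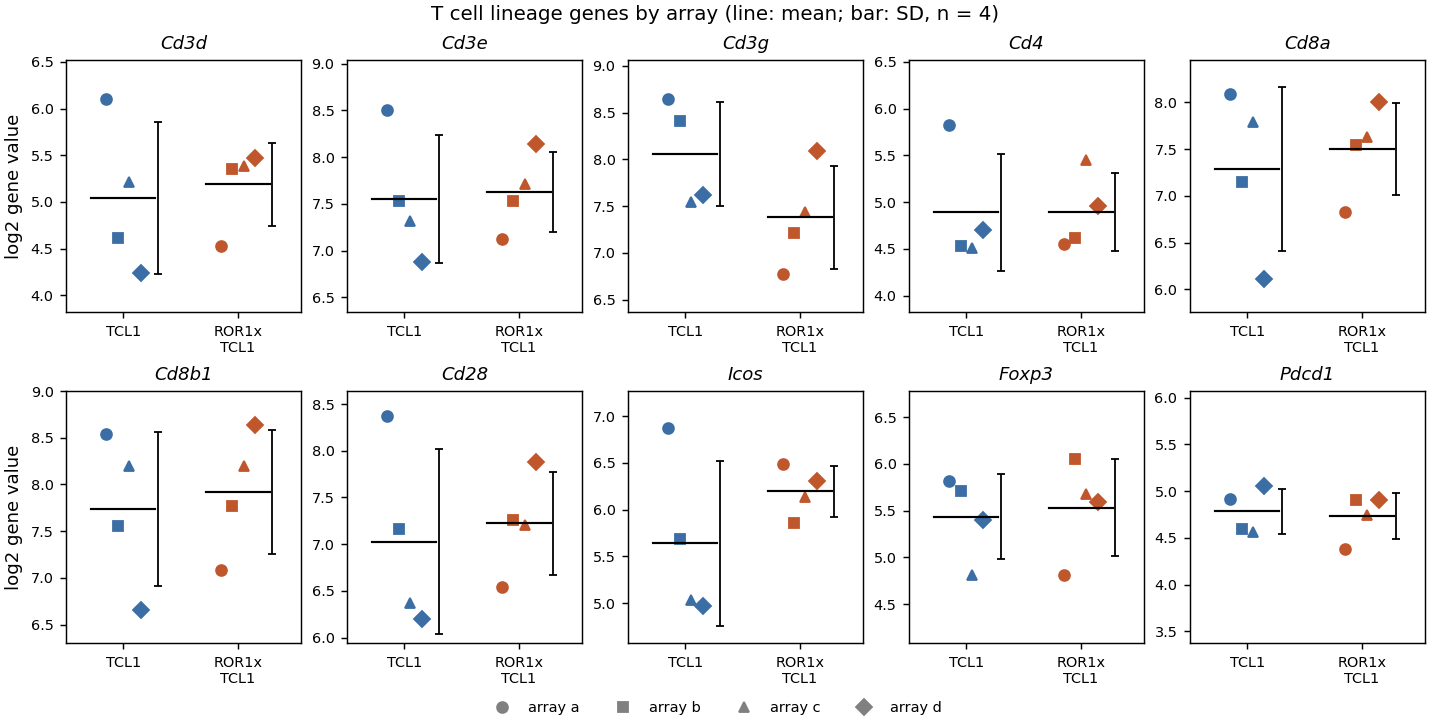
Log2 gene values (y axis, scaled per gene) of the 10 T lineage genes on 4 TCL1 arrays (blue) and 4 ROR1xTCL1 arrays (orange), with each symbol an array, lines the group means and bars the SD. The groups overlap in every panel, and TCL1 array a is the highest TCL1 array for all genes but Pdcd1.

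Among the CD3 chains, Cd3e (the epsilon chain) read 8.50, 7.53, 7.32 and 6.88 on TCL1 arrays a to d and 7.12, 7.53, 7.71 and 8.14 on ROR1xTCL1 arrays a to d. TCL1 array a was the highest and TCL1 array d the lowest, and the ROR1xTCL1 arrays all lay between them. The group means were 7.56 ± 0.69 and 7.63 ± 0.42 (SD, n = 4 each), a difference of 0.07 ± 0.34 (SE, limma adjusted p = 1.00, exact permutation p = 0.857).

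Cd3d (the delta chain) followed the same order at the top. It read 6.10, 4.62, 5.21 and 4.24 on the TCL1 arrays and 4.53, 5.36, 5.39 and 5.48 on the ROR1xTCL1 arrays. ROR1xTCL1 arrays b, c and d lay close together, ROR1xTCL1 array a lay below them, and the TCL1 arrays spread around all of them. The difference was 0.15 ± 0.39 (SE, limma adjusted p = 1.00, exact permutation p = 0.714).

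Cd3g (the gamma chain) was arranged differently. It read 8.65, 8.41, 7.55 and 7.62 on the TCL1 arrays and 6.78, 7.21, 7.44 and 8.09 on the ROR1xTCL1 arrays. ROR1xTCL1 arrays a, b and c lay below every TCL1 array, and ROR1xTCL1 array d lay among the TCL1 arrays. The means were 8.06 ± 0.56 in TCL1 and 7.38 ± 0.55 in ROR1xTCL1 (SD, n = 4 each). The difference of -0.68 ± 0.33 (SE, 95% interval -1.43 to 0.07) did not pass the test, with a limma adjusted p of 1.00, an unadjusted limma p of 0.071 and an exact permutation p of 0.143. Group held 33.4% of the variance of Cd3g, the highest share among the members.

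Because the CD3 chains work in one complex, Cd3g was also set against Cd3e on each array, a comparison chosen after the values were seen and given with no test. Cd3g minus Cd3e, each centred on its mean over the 8 arrays, was 0.02, 0.75, 0.10 and 0.62 on the TCL1 arrays and -0.47, -0.45, -0.40 and -0.18 on the ROR1xTCL1 arrays. Every ROR1xTCL1 array was therefore below every TCL1 array, and the group means differed by -0.75. Of the 16418 genes other than Cd3e set against it in the same way, 0.0244% had groups that did not overlap and 0.0183% had every ROR1xTCL1 array below every TCL1 array. Without the subtraction, 1.1% of all genes did not overlap. Cd3e had overlapping groups and an SD of 0.53 over the arrays, against 0.21 for the median gene. A gene that varies little thus mostly carries the spread of Cd3e after the subtraction. The low shares therefore do not show how unusual Cd3g was. From means of the genes' probe sets, a separate summary of the same arrays, the difference was -0.73. Set against Cd3d in the gene table, the groups overlapped, with -0.27 on TCL1 array c and 0.01 on ROR1xTCL1 array d. Across all the other members as partners in the gene table, the groups overlapped for 7 and did not for 2, Cd3e and Cd28. From probe set means they overlapped for 5 and did not for 4, Cd3d among these 4.

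The 3 CD3 genes are neighbours on mouse chromosome 9 in the order Cd3g, Cd3d, Cd3e, with Cd3g and Cd3e on the minus strand and Cd3d on the plus strand. Their upstream sequences are shown because the 3 chains are neighbours that serve one complex, and the values of Cd3g and Cd3e are set side by side above. Each is the 250 bases before the annotated start, 5′ to 3′ on the gene's strand, from RefSeq on GRCm38.p6, at chr9:44980432-44980681 for Cd3g, chr9:44981536-44981785 for Cd3d and chr9:45009612-45009861 for Cd3e. Capitals mark matches on either strand to short cores of factors known in T cells.
Cd3g: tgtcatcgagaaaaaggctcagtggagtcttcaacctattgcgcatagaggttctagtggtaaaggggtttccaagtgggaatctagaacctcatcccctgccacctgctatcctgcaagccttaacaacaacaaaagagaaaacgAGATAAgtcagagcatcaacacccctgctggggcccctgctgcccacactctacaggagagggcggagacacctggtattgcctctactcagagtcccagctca
Cd3d: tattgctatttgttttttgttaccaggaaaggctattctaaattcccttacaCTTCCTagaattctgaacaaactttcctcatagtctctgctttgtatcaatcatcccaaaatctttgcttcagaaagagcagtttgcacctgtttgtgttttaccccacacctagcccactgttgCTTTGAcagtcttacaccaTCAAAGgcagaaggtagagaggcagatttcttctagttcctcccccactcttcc
Cd3e: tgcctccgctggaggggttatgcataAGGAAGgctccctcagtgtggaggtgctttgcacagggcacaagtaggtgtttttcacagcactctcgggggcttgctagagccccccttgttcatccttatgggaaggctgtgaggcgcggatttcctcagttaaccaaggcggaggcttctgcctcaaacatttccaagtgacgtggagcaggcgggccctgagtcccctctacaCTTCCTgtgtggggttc

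Each core was searched on both strands, and none contains another. The core of ETS factors, AGGAAG, was found 1 time before Cd3d and 2 times before Cd3e, was not found before Cd3g, and occurs in 29.2% of 27025 promoters of this length. The core of TCF and LEF factors, CTTTGA, was found 2 times before Cd3d only and occurs in 14% of promoters. That of GATA factors, AGATAA, was found 1 time before Cd3g only and occurs in 10.3%. The RUNX core TGTGGT occurs in 14.2% of promoters and was found before none of the 3 genes. Nor was CAGCTG, a single spelling of the E box, which occurs in 12.8% and is its own reverse complement. Other spellings of the E box were not searched, so their absence is not shown. These matches describe the letters of the windows only. The table held such a sequence for 6 of the 10 members.

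The probe sets of Cd3g moved together. All 9 lay lower in ROR1xTCL1, by -1.13 to -0.54 with a median of -0.66, where 50.2% of all 1236087 probe sets lay below 0. They measure one gene in the same RNA and are not replicates. Each Cd3g probe set correlated with the mean of the others at a median r of 0.91 over the arrays. The largest difference, at probe set 4747974, was -1.13 ± 0.36 (SE, limma adjusted p = 1.00). On that probe set the replicates read 8.54, 8.45, 7.70 and 7.18 in TCL1 and 6.18, 6.83, 7.10 and 7.22 in ROR1xTCL1, so 3 of the 4 ROR1xTCL1 replicates were below all TCL1 replicates. Over all members, 2 of 107 probe sets had an unadjusted p under 0.05, which is 1.87% against a background of 3.3%, and 0 passed the adjusted threshold (0% of all probe sets). The other was probe set 4728550 of Cd4, at -0.95 ± 0.43 (SE, limma adjusted p = 1.00), while the 14 Cd4 probe sets had a median of 0.05. The probe sets of Cd3e had a median difference of 0.04 and those of Cd3d one of 0.10.

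**Figure D2:**
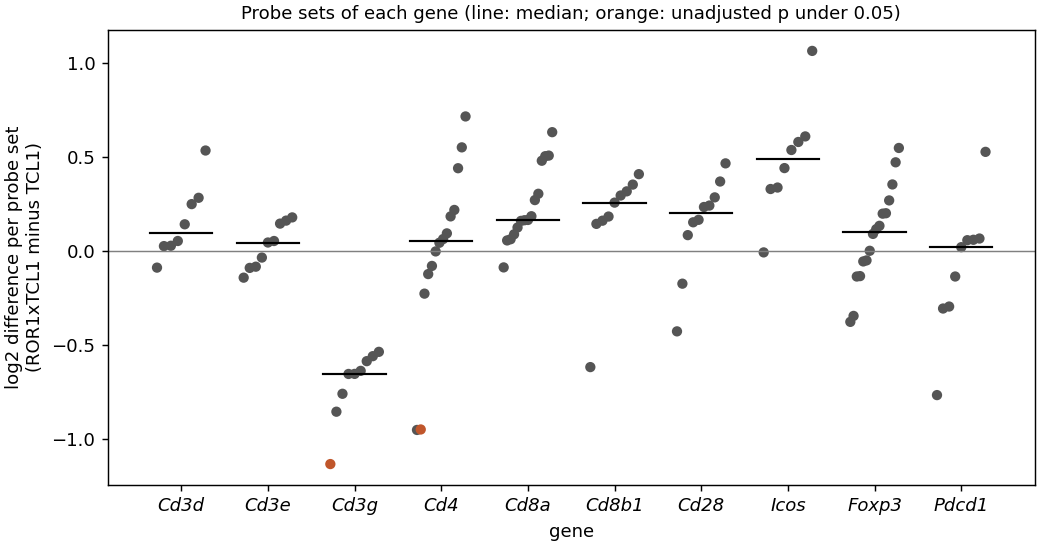
Log2 difference between the groups (y axis, ROR1xTCL1 minus TCL1) of each of 107 probe sets of the 10 genes, with lines at the medians. All 9 Cd3g points lie between -1.13 and -0.54, the other genes have medians of 0.02 to 0.49, and the 2 orange points have an unadjusted p under 0.05.

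Turning to the coreceptors, Cd8a, the alpha chain of the cytotoxic coreceptor, read 8.09, 7.15, 7.79 and 6.11 on the TCL1 arrays and 6.83, 7.55, 7.63 and 8.0 on the ROR1xTCL1 arrays. The lowest and the highest arrays were both TCL1 arrays and differed 3.95-fold. The beta chain, Cd8b1, read 8.54, 7.56, 8.20 and 6.66 on the TCL1 arrays and 7.08, 7.77, 8.20 and 8.64 on the ROR1xTCL1 arrays. TCL1 array d was again the lowest, and ROR1xTCL1 array d was slightly above TCL1 array a. The differences were 0.22 ± 0.42 for Cd8a and 0.18 ± 0.44 for Cd8b1 (SE, limma adjusted p = 1.00 for both).

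Cd4, the helper coreceptor, read 5.82, 4.53, 4.51 and 4.70 on the TCL1 arrays and 4.55, 4.61, 5.45 and 4.96 on the ROR1xTCL1 arrays. TCL1 array a and ROR1xTCL1 array c were high, and the other 6 arrays lay between 4.51 and 4.96. Both group means were 4.89, with an SD of 0.63 in TCL1 and 0.41 in ROR1xTCL1 (n = 4 each). The difference was 0.00 ± 0.32 (SE, limma adjusted p = 1.00, 95% interval -0.72 to 0.73).

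Foxp3, which specifies regulatory T cells, read 5.82, 5.71, 4.81 and 5.40 on the TCL1 arrays and 4.81, 6.05, 5.67 and 5.59 on the ROR1xTCL1 arrays. One array of each group was low, TCL1 array c and ROR1xTCL1 array a, and the others overlapped. The difference was 0.10 ± 0.30 (SE, limma adjusted p = 1.00).

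The costimulatory receptor Cd28 had the widest range of the members, 4.50-fold between its lowest and highest arrays. It read 8.38, 7.16, 6.37 and 6.20 on the TCL1 arrays and 6.54, 7.26, 7.21 and 7.88 on the ROR1xTCL1 arrays. TCL1 array a stood above all others and TCL1 arrays c and d below all others, and the group difference was 0.20 ± 0.47 (SE, limma adjusted p = 1.00).

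Icos, a costimulator of activated and follicular helper T cells, had the second highest share of variance between the groups, 19.6%. It read 6.87, 5.68, 5.03 and 4.97 on the TCL1 arrays and 6.49, 5.85, 6.13 and 6.30 on the ROR1xTCL1 arrays. The 4 ROR1xTCL1 arrays lay above TCL1 arrays b, c and d, and below TCL1 array a. The means were 5.64 ± 0.88 in TCL1 and 6.20 ± 0.27 in ROR1xTCL1 (SD, n = 4 each), a difference of 0.56 ± 0.39 (SE, limma adjusted p = 1.00, exact permutation p = 0.257). Without TCL1 array a the difference was 0.97 ± 0.22 (SE, limma adjusted p = 1.00), the highest with 1 array left out. The lowest was 0.34 ± 0.39 (SE), without TCL1 array d. Of the 8 Icos probe sets, 7 were higher in ROR1xTCL1, with a median difference of 0.49.

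Pdcd1, which encodes the inhibitory receptor PD-1, varied least. It read 4.92, 4.60, 4.56 and 5.06 on the TCL1 arrays and 4.38, 4.91, 4.74 and 4.91 on the ROR1xTCL1 arrays. The groups covered nearly the same range, with a difference of -0.05 ± 0.16 (SE, limma adjusted p = 1.00). The 9 probe sets of Pdcd1 hardly followed each other over the arrays, with a median r of 0.08 to the mean of the others, where the medians of the other members were 0.64 to 0.93.

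The balance of helper, cytotoxic and regulatory genes was read from values centred on each gene's own mean over the 8 arrays. Cd4 minus the mean of Cd8a and Cd8b1 was 0.23, -0.11, -0.76 and 1.03 on the TCL1 arrays and 0.32, -0.33, 0.26 and -0.64 on the ROR1xTCL1 arrays. TCL1 array d lay furthest to the helper side, where both CD8 genes were at their lowest, and TCL1 array c furthest to the cytotoxic side. On TCL1 array d Cd4 was itself below its own mean, at -0.20, so that position came from low CD8 values and not from high Cd4. Except on TCL1 array a and ROR1xTCL1 array c, Cd4 read 4.51 to 4.96, under the array medians of 5.03 to 5.09. The group means differed by -0.20, which is less than the SD of 0.62 within groups, and the groups overlapped. With 1 array left out the difference ran from -0.48 to 0.12, and its sign turned without TCL1 array d.

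The regulatory value showed the same extremes against the cytotoxic one. Foxp3 minus the CD8 mean was -0.37, 0.48, -1.06 and 1.14 on the TCL1 arrays and -0.02, 0.52, -0.11 and -0.60 on the ROR1xTCL1 arrays. Foxp3 minus Cd4 was -0.60, 0.59, -0.29 and 0.11 on the TCL1 arrays and -0.34, 0.85, -0.37 and 0.04 on the ROR1xTCL1 arrays. ROR1xTCL1 array b was the highest and TCL1 array a the lowest. The group differences were -0.10 for Foxp3 against CD8 and 0.10 for Foxp3 against Cd4, both below the SD within groups of 0.75 and 0.54. Leaving out 1 array turned both signs. Foxp3 against CD8 was 0.045 without TCL1 array b, 0.26 without TCL1 array d and 0.082 without ROR1xTCL1 array d, and Foxp3 against Cd4 was -0.088 without TCL1 array a and -0.17 without ROR1xTCL1 array b.

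Against the mean of the 3 CD3 chains, the CD8 value was 0.35 higher in ROR1xTCL1, Foxp3 0.25 higher and Cd4 0.16 higher, with overlap in each and an SD within groups of 0.36, 0.48 and 0.38. These 3 differences depended on Cd3g, and against the mean of Cd3d and Cd3e alone they were 0.09, -0.01 and -0.11. The centred Icos minus Cd28 was -0.37 to 0.14 on 7 arrays of the gene table, and -0.60 to 0.57 on 7 replicates from probe set means, where the highest was ROR1xTCL1 replicate 1 at 1.14. On ROR1xTCL1 array a it was 1.16, where Icos was above its own mean and Cd28 below its own at -0.58.

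**Figure D3:**
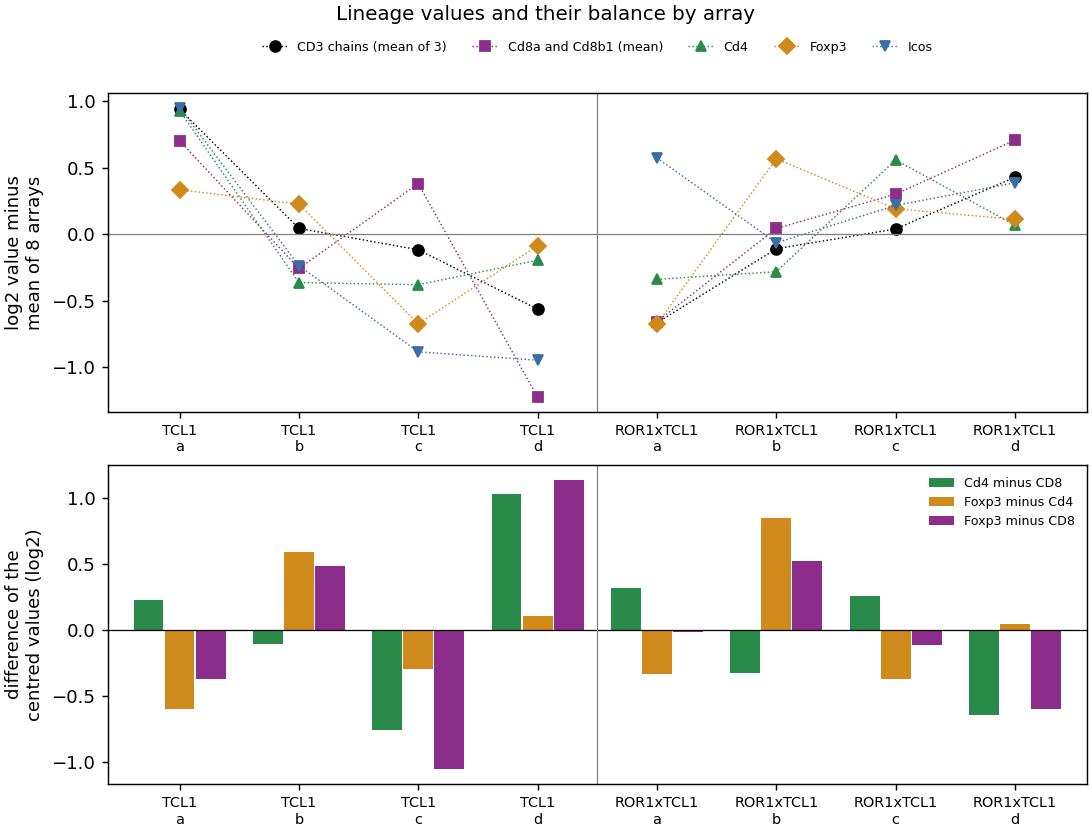
Top, log2 values minus each gene's mean over 8 arrays (y axis) for the CD3 chains, CD8 genes, Cd4, Foxp3 and Icos on each array (x axis); dotted lines only link the points of one gene, since arrays have no order. Bottom, bars of Cd4 minus CD8, Foxp3 minus Cd4 and Foxp3 minus CD8; Cd4 minus CD8 runs from -0.76 on TCL1 array c to 1.03 on TCL1 array d, and the groups overlap in all 3.

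Most pairs of members were positively correlated over the animals. Of 45 pairs, 44 had a Pearson's r above 0, with a median of 0.54. The share of such pairs among all genes was not computed, so this count and the calls below have no background beside them. After Benjamini-Hochberg adjustment of exact 2-sided permutation p-values over the 45 pairs, 6 passed a threshold of 0.05, and by Spearman's rho 7 did. The CD8 chains had the highest r, 0.98 (rho 0.97, exact adjusted p = 0.00446 and 0.0112), and are neighbouring genes on chromosome 6. Cd3e and Cd28 followed at 0.97 (rho 0.95, exact adjusted p = 0.00484 and 0.0171), and Cd3d and Cd8a at 0.92 (rho 0.93, exact adjusted p = 0.00484 and 0.0201). Cd3d with Cd8b1 gave 0.91 (rho 0.93, exact adjusted p = 0.0179 and 0.019), Cd3d with Cd3e 0.89 (rho 0.98, exact adjusted p = 0.0239 and 0.0112), and Cd3e with Cd8b1 0.86 (rho 0.87, exact adjusted p = 0.0443 and 0.0466).

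Without the 2 arrays farthest from the median of the pair's first gene, the 6 values of r were 0.95, 0.93, 0.92, 0.87, 0.67 and 0.80 in the order above. None of the 45 pairs passed then. With 6 arrays the smallest exact permutation p is 0.00139, which is 0.0625 for a single pair after adjustment over 45. More than 1 pair at that limit could still have passed, but the lowest exact adjusted p of these 6 pairs was 0.188. The lost calls alone therefore do not decide how stable the pairs are. Leaving out TCL1 array d left 2 pairs past the threshold, and leaving out TCL1 array c gave 10. With each group's mean removed, 4 of the 6 pairs passed. Cd3d with Cd3e (exact adjusted p = 0.0893) and Cd3e with Cd8b1 (0.0977) did not, and Cd3e with Cd3g passed (0.0469).

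Over all 8 arrays Cd3g was in none of the pairs that passed, with r of 0.42 with Cd3d (exact adjusted p = 0.422) and 0.67 with Cd3e (0.184). With the group means removed, Cd3g and Cd3e gave 0.88 and Cd3g and Cd28 gave 0.91, pooled over both genotypes. Of these, Cd3g with Cd3e passed the threshold and Cd3g with Cd28 did not. Foxp3 gave 0.66 with Cd28 and 0.44 with Cd4, and Cd4 gave 0.51 with Cd8a, none past the threshold. Pdcd1 had its highest r with Foxp3, 0.65 (exact adjusted p = 0.205), which was -0.23 without the 2 farthest arrays.

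**Figure D4:**
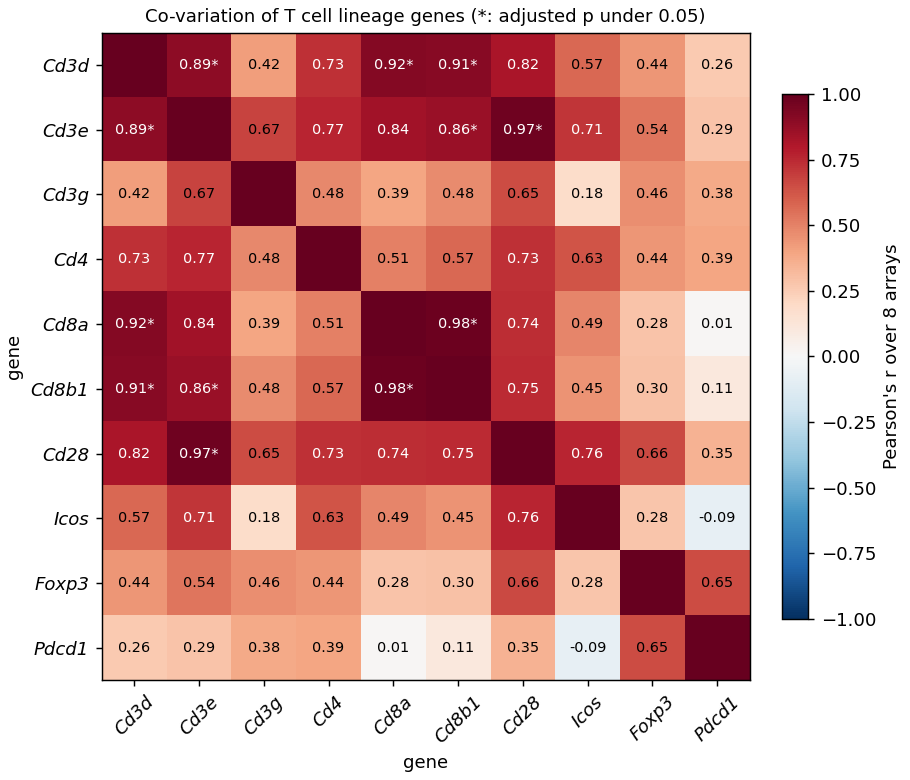
Pearson's r over 8 arrays for each pair of the 10 genes (both axes), with asterisks where the exact permutation p adjusted over 45 pairs is under 0.05. The 6 marked pairs join Cd3d, Cd3e, Cd8a, Cd8b1 and Cd28, and Cd3g, Cd4, Icos, Foxp3 and Pdcd1 have no marked pair.

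Outside the members, the genes most like the mean of the 3 CD3 chains over the 8 arrays were sought among the 8202 other genes at or above the median level, and the r values below are a measure of likeness with no test. Abcb1a, a drug efflux pump, and Thy1, a surface marker of mouse T cells, had the highest r, 0.96 each. Abcb1a ran from 4.67 on TCL1 array d to 5.80 on TCL1 array a, and Thy1 from 6.99 on ROR1xTCL1 array a to 8.25 on TCL1 array a. Sh2d2a, an adaptor that binds Lck, had 0.95, and Cd96, a receptor of T and natural killer cells, also 0.95 with a range of 4.85 to 7.02. Prkch, a protein kinase C, followed at 0.92, Zyx at 0.901, Gabpa at 0.896 and Sptssa at 0.894. Gabpa spanned only 0.34 log2 units over the arrays and Sptssa 0.56, against 1.87 for Prkch. From probe set means r was 0.91 for Prkch, 0.87 for Zyx, 0.76 for Gabpa and 0.85 for Sptssa. Without TCL1 array a, r was 0.92 for Abcb1a, 0.95 for Thy1, 0.92 for Sh2d2a and 0.90 for Cd96. It was then 0.82 for Prkch, 0.78 for Zyx, 0.77 for Gabpa and 0.81 for Sptssa. Only 6 of the 8202 genes (0.0732%) reached an r of 0.9.

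Other genes of the T lineage gave no call either. In each of the 13 gene lists described here and in the closing section, 0 genes passed the adjusted threshold, 0 had an unadjusted limma p under 0.05 and 0 had groups that did not overlap. Of 18 measured genes of T cell receptor signalling, 10 were above 0 and 8 below, with a median of 0.02. Themis, a signalling adaptor of developing T cells, was at 4.95 ± 0.79 in TCL1 and 5.25 ± 0.63 in ROR1xTCL1 (SD, n = 4 each). Fyn differed by 0.37 ± 0.41 and Prkcq by 0.30 ± 0.40 (SE). The mean of the centred list correlated with the CD3 value at r = 0.90 over the 8 arrays, given as a description.

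Of 12 T lineage transcription factors 6 were above 0 (median -0.07), with Id3 at -0.51 ± 0.52, Id2 at -0.30 ± 0.26, Tox at -0.24 ± 0.32 and Eomes at -0.18 ± 0.16 (SE). Over the arrays Id3 had r = -0.42 with Cd3e, where Id2 had 0.68, Tox 0.83 and Eomes 0.78, as descriptions. Of 10 measured helper genes 4 were above 0 (median -0.07). Among these Il7r, the receptor for interleukin 7, ran from 6.17 on TCL1 array d to 9.11 on ROR1xTCL1 array c, with a group difference of 0.69 ± 0.60. Cd40lg, by which helper T cells activate B cells, differed by 0.39 ± 0.21, Ccr4 by 0.36 ± 0.33 and Ifng by -0.24 ± 0.25. Ccr4 lay between 1.73 and 3.38 on all arrays, below the first quartile of each.

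Of 11 measured genes of cytotoxic T and natural killer cells, 3 were above 0 and 8 below (median -0.10). Nkg7, a granule protein, was at 8.99 ± 0.66 in TCL1 and 8.73 ± 0.25 in ROR1xTCL1 (SD, n = 4 each). Gzmk, a granzyme, differed by -0.62 ± 0.43, Klrd1 by 0.20 ± 0.40 and the chemokine Ccl5 by -0.24 ± 0.31 (SE). Of 9 measured regulatory genes 4 were above 0 (median -0.03), where Nrp1 differed by 0.84 ± 0.53, Il2ra by -0.56 ± 0.57, Il10 by -0.52 ± 0.35 and Ikzf2 by 0.18 ± 0.34 (SE). Over the arrays Il10 had r = -0.26 with Cd3e, where Nrp1 had 0.36, Il2ra 0.48 and Ikzf2 0.78, as descriptions. Which cells carried the RNA of the listed genes was not tested.

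Markers of myeloid and erythroid cells differed between the same animals. All 9 neutrophil genes were below 0 (median -0.88), and their centred mean was 2.84, -1.37, 1.36 and -1.15 on the TCL1 arrays and -0.77 to -0.13 on the ROR1xTCL1 arrays. All 9 were highest on TCL1 array a, where S100a8 read 10.48 against 5.45 on TCL1 array b. S100a8 differed by -1.11 ± 1.00, Elane by -0.99 ± 0.69, Ltf by -0.92 ± 0.97 and Mpo by -0.92 ± 0.83 (SE). Of 9 measured monocyte and macrophage genes 2 were above 0 (median -0.08), and their centred mean was 1.05 on TCL1 array a and 0.68 on ROR1xTCL1 array a, with the other arrays at -0.86 to 0.00. C1qa differed by -0.38 ± 0.45, C1qb by -0.25 ± 0.63 and Adgre1 by 0.24 ± 0.50 (SE).

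Erythroid genes, of which 1 of 5 was above 0 (median -0.39), had their highest centred mean on ROR1xTCL1 array a, 1.81, with the others at -1.01 to 0.65. Hbb-b1 differed by -0.68 ± 0.55, Alas2 by -0.65 ± 0.81 and Klf1 by 0.25 ± 0.46 (SE). Of 10 B cell genes 8 were above 0 (median 0.05), with a centred mean of -0.20 to 0.32 over the arrays and r = 0.01 with the CD3 value. The neutrophil mean had r = 0.57 and the macrophage mean r = 0.37 with the CD3 value, as descriptions over 8 arrays. The part of these cells in the T lineage values was not tested. Leaving out TCL1 arrays a and c, the arrays with the highest neutrophil values, was chosen after seeing the data and kept only TCL1 arrays b and d. TCL1 array a was the highest array for 7 members and TCL1 array d the lowest for 6. Cd3g then differed by -0.64 ± 0.38, Icos by 0.87 ± 0.25, Cd3d by 0.76 ± 0.29 and Cd8a by 0.87 ± 0.39 (SE). Cd8b1 differed by 0.81 ± 0.45, Cd28 by 0.54 ± 0.40, Cd3e by 0.42 ± 0.31 and Cd4 by 0.28 ± 0.26. Foxp3 was at -0.02 ± 0.33 and Pdcd1 at -0.09 ± 0.21 (SE), and 0 genes passed the limma adjusted threshold.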

How the data were processed

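The probe set table deposited by the authors holds log2 RMA values made with oligo, per the labels, and the submitters' processing notes name R 2.15.1. The scale of the deposited gene table is not stated and was taken as log2 from its range, and how its gene values were made is not stated beyond the Affymetrix Exon Array Computational Tool named in the series text. Of 16495 rows, 4 with a number for a name were dropped and 72 repeated names were averaged. Names were matched to RefSeq (GRCm38.p6): 14742 current symbols, 1438 synonyms, 239 kept. Of 1236087 probe sets, 321091 had 1 gene symbol, 7796 several and 907200 were unnamed here.

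The group test was limma 3.58.1 under R 4.3.3 (constant prior, Benjamini-Hochberg over all genes). It was checked on the deposited values with group means removed and known steps added to some genes. That check covers recovery of the steps only. Exact 2-sided permutation tests over 70 orderings cannot go below 0.0286. Correlations used 40320 orderings. Precision is limited by the number of arrays. The members and lists were chosen with earlier results of these data known. Named are the members, up to 4 genes per list with the largest absolute difference, the CD79 genes, and 8 genes most like the CD3 mean; some genes the rule names are not reported here. Alternatives were probe set means and medians, other limma settings, quantile normalization, filters, sex, replicate block and arrays left out.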

Additional observations from a re-analysis of the deposited data

Results flagged for a closer look

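Within the 52 groups of 4 values checked, 4 held a sample far from the other 3 by the Dixon gap rule for 4 samples at 95%. Chance gives about 1 such group in 20. Cd3d on ROR1xTCL1 array a read 4.53, with the next array at 5.36. Cd4 on TCL1 array a read 5.82, with the next at 4.70, and from probe set means Cd4 in TCL1 replicate 1 read 5.33, with the next at 4.41. Foxp3 from probe set means in ROR1xTCL1 replicate 1 read 4.72, with the next at 5.37.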

How the results depend on the processing

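Under every alternative run, 0 genes and 0 members passed the threshold, and Cd3g and Icos kept their signs, with -0.92 to -0.48 and 0.34 to 0.97 when 1 array was left out. The other 8 members changed sign in some settings. Cd4 was -0.0036 from probe set means, -0.024 from probe set medians and -0.032 with sex as a covariate. Cd3e was -0.0012, Foxp3 -0.024 and Pdcd1 0.25 from probe set medians, Cd8b1 was -0.026 with sex as a covariate, and Foxp3 was -0.021 without TCL1 arrays a and c, an alternative chosen after seeing the data, as was the CD3 value without Cd3g. With 1 array left out, the ranges were -0.12 to 0.50 for Cd3d, -0.15 to 0.39 for Cd3e, -0.18 to 0.31 for Cd4, -0.18 to 0.48 for Cd8a, -0.18 to 0.46 for Cd8b1, -0.079 to 0.64 for Cd28, -0.11 to 0.34 for Foxp3 and -0.12 to 0.069 for Pdcd1. The 6 pairs past the threshold became 0 without the 2 farthest arrays, where a single pair cannot pass the adjustment over 45 with the 6 arrays left, 10 from probe set means and 2 to 10 with 1 array left out, and the r of Foxp3 and Pdcd1 turned to -0.23. The cause was not tested. With the replicate number as a block on probe set means, Cd4 was -0.0036, Cd3g -0.71 ± 0.42 (SE) and 0 genes passed. Same-numbered samples deviated together at r of 0.23, -0.005, 0.22 and 0.11, and TCL1 4 correlated best with ROR1xTCL1 2 (0.32), so the numbers were not taken to pair the samples. The sex of 3 animals was read as male from Ddx3y, 1 in TCL1 and 2 in ROR1xTCL1. RMA equalises the arrays, which removes differences in total signal, and 4 mice a group limit what could be called.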

Other observations

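Ligands of the costimulatory and inhibitory receptors are carried by B cells and myeloid cells. Of 5 measured, 1 was above 0 in ROR1xTCL1 (median -0.08), and 0 passed the limma adjusted threshold. Pdcd1lg2, a ligand of PD-1, ran from 6.83 on ROR1xTCL1 array c to 8.21 on TCL1 array d and differed by -0.38 ± 0.25 (SE). Cd274, the other ligand of PD-1, differed by -0.08 ± 0.15, Icosl by -0.15 ± 0.26 and Cd86 by 0.11 ± 0.21. The centred mean of the list had r = -0.56 with the CD3 value over the 8 arrays, a description with no test.

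Of 6 measured inhibitory receptors 3 were above 0 (median -0.05), with Lag3 at -0.26 ± 0.14, Cd160 at -0.23 ± 0.16, Entpd1 at -0.17 ± 0.20 and Havcr2 at 0.16 ± 0.30 (SE). Of 5 thymocyte genes 2 were above 0 (median -0.05). Rag2, which acts in receptor gene rearrangement of immature lymphocytes, lay between 1.96 and 2.22 on all arrays, below the first quartile of each. Rag1 differed by 0.18 ± 0.13, Ptcra by -0.06 ± 0.13 and Cd1d1 by -0.17 ± 0.21 (SE). Of 8 dendritic cell genes 4 were above 0 (median 0.02), with Siglech at 0.35 ± 0.23, Batf3 at -0.25 ± 0.22, Flt3 at -0.12 ± 0.23 and Xcr1 at 0.09 ± 0.24 (SE).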
